A study of Mus musculus with 8 samples.

Results

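The 9 genes described here encode CC chemokines and receptors for them: the ligands Ccl2, Ccl3, Ccl4, Ccl6, Ccl7, Ccl9 and Ccl12, and the receptors Ccr1 and Ccr2. They were taken by gene symbol and make up 9 of the 19938 genes tested. The list was chosen with earlier results of these data known, so its counts beside all genes are a description. All 9 were measured, each by 1 probe set, and no filter on low values was applied. Biotin-labelled targets made from heart RNA were read on Affymetrix Mouse Gene ST arrays. The 4 groups were KO MI, WT MI, KO sham and WT sham, with 2 arrays in each. KO mice lacked MAFbx, the muscle ubiquitin ligase encoded by Fbxo32, and WT mice did not. The titles of the WT samples read LM, and the labels do not say what LM stands for. In MI mice the left coronary artery had been tied off for good, a model of myocardial infarction, and RNA was taken 1 day later. For sham hearts the labels give no time. Strain, age, sex, the deleted part of the gene and any other allele are not given in the labels either, nor is it said that the 2 arrays of a group are different mice. The p-values thus rest on the spread between these samples, part of which may be technical.

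CC chemokines are small secreted proteins named for a pair of adjacent cysteines, and they guide leukocytes along gradients through receptors that couple to inhibitory G proteins. Ccl2, Ccl7 and Ccl12 act on Ccr2, the receptor that lets inflammatory monocytes leave the bone marrow and enter injured tissue. Ccl3, Ccl6, Ccl7 and Ccl9 act on Ccr1, which mouse neutrophils and monocytes carry. In an infarcted heart the first wave of leukocytes is made up of neutrophils, and Ccr2-bearing monocytes follow.

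Fbxo32 was low in every KO array, with log2 levels of 5.14 and 5.46 in KO MI against 8.35 and 8.21 in WT MI, and 4.68 and 5.17 in KO sham against 8.76 and 8.79 in WT sham. The 8 heart muscle genes listed as a check of the tissue read between 11.75 and 13.94 in all 8 arrays. Across genes, the 2 arrays of each group had a Pearson r of 0.996 in KO MI, 0.993 in WT MI, 0.991 in KO sham and 0.996 in WT sham, where genes are not independent replicates. Replicate 1 of KO sham and replicate 2 of WT MI stood apart on the second principal component (at -21.2 and -20.2, with the other 6 arrays between 0.13 and 16.2), which held 8.56% of the variance. For the 9 genes the gap between the 2 arrays of a group had a median of 0.28 on the log2 scale and reached 0.88 at most, for Ccl3 in WT MI.

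The genes lie in tandem on 2 chromosomes. In the RefSeq gene table of the mouse assembly GRCm38.p6, Ccl2, Ccl7 and Ccl12 stand in a run on chromosome 11 with the eosinophil chemokine gene Ccl11 and with Ccl8, and Ccl9, Ccl6, Ccl3 and Ccl4 stand in another run on the same chromosome. Ccr1 and Ccr2 stand on chromosome 9 with Ccr1l1 and Ccr3 between them. Neighbours in such runs arose by duplication, and whether their probes share signal was not tested. RefSeq start-site windows, 250 bases before to 50 bases after the start, were at hand for 6 of the 9 genes. Of these, 4 are shown, those of the ligand with the largest response to infarction (Ccl3), of the ligand with the smallest (Ccl12), of the one ligand whose window held matches to both NF-kB and AP-1 (Ccl9), and of the receptor whose level differed most between the genotypes after infarction (Ccr1). Capitals mark the matches described after them.
Ccl3 (GRCm38.p6, chr11:83649329-83649628, minus strand): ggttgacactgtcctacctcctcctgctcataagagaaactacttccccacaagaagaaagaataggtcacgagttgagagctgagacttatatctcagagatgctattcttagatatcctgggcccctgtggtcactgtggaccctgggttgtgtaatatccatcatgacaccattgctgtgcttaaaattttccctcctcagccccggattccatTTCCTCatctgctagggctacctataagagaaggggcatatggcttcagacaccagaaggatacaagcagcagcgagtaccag
Ccl12 (GRCm38.p6, chr11:82101595-82101894, plus strand): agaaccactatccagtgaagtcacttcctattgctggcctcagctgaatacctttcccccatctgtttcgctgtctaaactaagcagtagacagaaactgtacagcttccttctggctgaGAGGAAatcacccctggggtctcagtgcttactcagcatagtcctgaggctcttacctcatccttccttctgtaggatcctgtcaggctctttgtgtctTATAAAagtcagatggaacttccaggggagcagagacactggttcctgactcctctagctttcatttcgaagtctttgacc
Ccl9 (GRCm38.p6, chr11:83578587-83578886, minus strand): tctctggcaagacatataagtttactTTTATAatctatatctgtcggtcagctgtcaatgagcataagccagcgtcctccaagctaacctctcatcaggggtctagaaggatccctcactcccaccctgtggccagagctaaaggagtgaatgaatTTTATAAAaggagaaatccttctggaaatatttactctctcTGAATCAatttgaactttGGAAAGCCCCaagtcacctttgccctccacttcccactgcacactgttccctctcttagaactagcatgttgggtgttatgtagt
Ccr1 (GRCm38.p6, chr9:123968643-123968942, minus strand): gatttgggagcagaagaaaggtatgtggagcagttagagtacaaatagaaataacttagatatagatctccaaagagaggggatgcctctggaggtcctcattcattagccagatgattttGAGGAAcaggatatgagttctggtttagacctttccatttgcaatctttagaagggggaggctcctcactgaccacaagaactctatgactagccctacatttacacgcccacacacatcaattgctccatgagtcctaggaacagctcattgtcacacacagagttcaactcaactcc

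Matches were sought on both strands to 5 patterns in the 6 windows. The NF-kB consensus was found in 1 of the 6, that of Ccl9, starting 35 bases before the start site, and in 4.51% of all 32851 windows in the table. The AP-1 pattern TGANTCA was found in 1 of the 6, again Ccl9, starting 53 bases before the start site, and in 7.81% of all windows. GAGGAA, a core bound by PU.1 and other ETS factors of myeloid cells, was found in 3 of the 6 (Ccr1, Ccl12 and Ccl3) and in 28.3% of all windows. TATAAA was found in 2 of the 6, in Ccl12 starting 31 bases before the start site and in Ccl9 at 3 places, of which 2 overlap on opposite strands, and in 13.6% of all windows. The interferon-stimulated response element was found in 0 of the 6 and in 3.44% of all windows. Ccl6 and Ccr2 held 0 of the 5 patterns. A match is a string of letters, not a site.

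The first question was how the genes responded to infarction in each genotype. After MI 8 of the 9 rose in KO hearts and 9 of the 9 in WT hearts (limma, adjusted p under 0.05), beside 10.5% of all genes that rose in KO hearts and 12.3% in WT hearts. The median log2 fold change of the 9 was 3.18 in KO hearts and 3.26 in WT hearts, against 0.01 and 0.04 over all genes. The rise was at least 8-fold for 5 of the 9 in KO hearts (Ccl2, Ccl3, Ccl6, Ccl9 and Ccr1), beside 0.276% of all genes. In WT hearts it was at least 8-fold for 7 of the 9, those 5 with Ccl7 and Ccr2, beside 0.401% of all genes. In every one of the 9 genes, in both genotypes, the 2 MI arrays lay above the 2 sham arrays, beside 28.1% of all genes in KO hearts and 35.0% in WT hearts. Ccl4 and Ccl12 had the smallest folds. In whole-heart RNA, more cells of a type and more RNA per cell cannot be told apart.

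**Figure D1:**
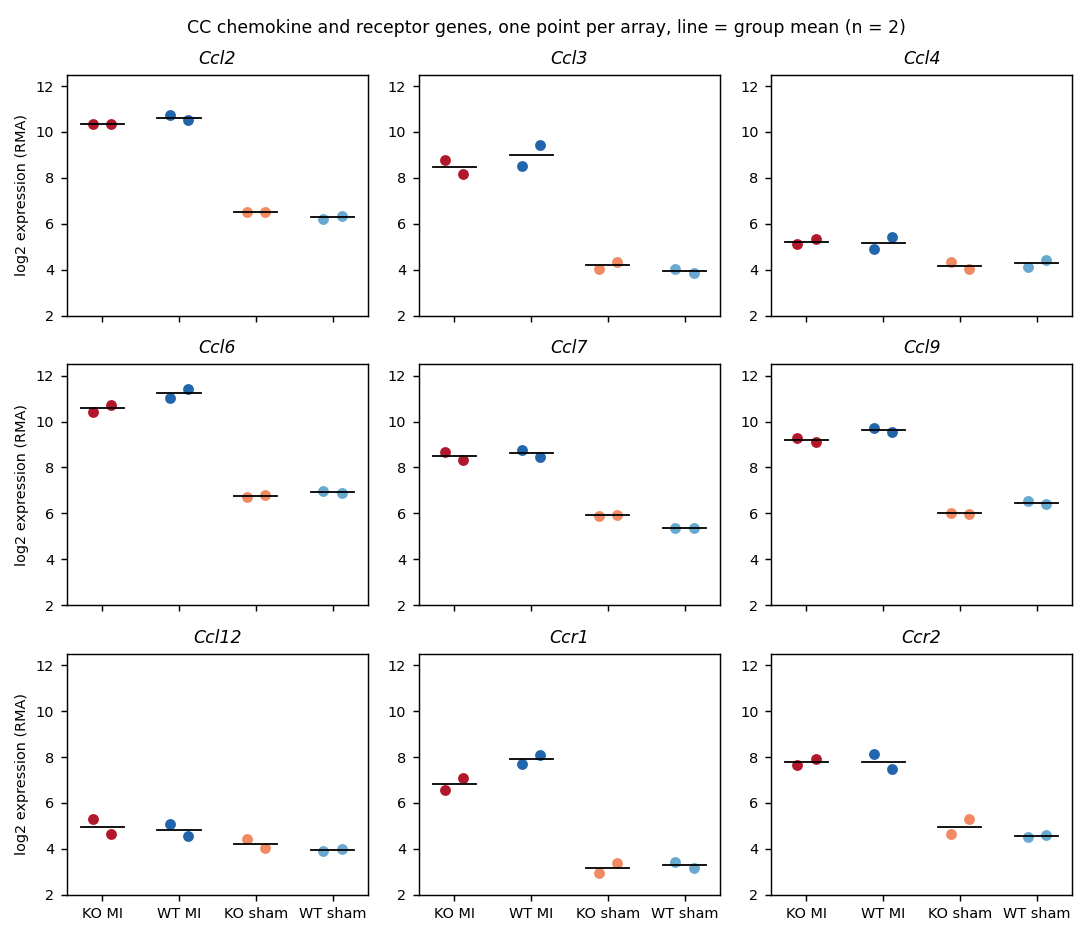
Log2 expression of each of the 9 genes (vertical axis, RMA values) in KO MI, WT MI, KO sham and WT sham hearts, with a point for each array and a line at the mean of 2 arrays. In every panel the 2 arrays of each MI group lie above both sham arrays of the same genotype, by a wide margin in 7 panels and a narrow one for Ccl4 and Ccl12.

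The ligands of Ccr2 came first in the order of roles. Ccl2, the main monocyte chemoattractant of injured tissue, had log2 levels of 10.35 and 10.33 in KO MI hearts, against 6.51 and 6.52 in KO sham hearts. Its levels were 10.72 and 10.53 in WT MI hearts, against 6.22 and 6.33 in WT sham hearts. The 2 KO MI arrays differed by 0.02, and MI and sham arrays were far apart in both genotypes. Ccl2 rose 14.2-fold in KO hearts (log2 fold change 3.83, SE 0.12, limma adjusted p = 3.93e-07). In WT hearts it rose 20.4-fold (4.35, SE 0.12, adjusted p = 1.2e-07).

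Ccl7, which stands next to Ccl2 and binds both Ccr2 and Ccr1, had log2 levels of 8.69 and 8.32 in KO MI hearts, against 5.89 and 5.94 in KO sham hearts. Its levels were 8.75 and 8.46 in WT MI hearts, against 5.357 and 5.345 in WT sham hearts. The MI arrays of the genotypes overlapped, while both KO sham arrays lay above both WT sham arrays. Ccl7 rose 6.03-fold in KO hearts (log2 fold change 2.59, SE 0.15, limma adjusted p = 7.86e-06). The WT rise was 9.55-fold (3.26, SE 0.15, adjusted p = 1.2e-06).

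Ccl12, a mouse relative of Ccl2, had log2 levels of 5.30 and 4.64 in KO MI hearts, against 4.42 and 4.04 in KO sham hearts. Its levels were 5.06 and 4.58 in WT MI hearts, against 3.92 and 3.98 in WT sham hearts. The MI arrays lay above the sham arrays of the same genotype and the 2 MI arrays of each genotype were spread wider than in most of the 9 genes. Ccl12 rose 1.82-fold in WT hearts (log2 fold change 0.87, SE 0.24, limma adjusted p = 0.0213). In KO hearts its log2 fold change was 0.74 (SE 0.24, adjusted p = 0.0524), just short of the threshold. Of the 16 alternatives 6 brought it past the threshold in KO hearts (range of adjusted p 0.0201 to 0.341), and 5 of 16 took it out in WT hearts (range 0.00709 to 0.131).

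Ccl3 and Ccl4 encode the macrophage inflammatory proteins 1 alpha and beta. Ccl3 had log2 levels of 8.77 and 8.17 in KO MI hearts, against 4.04 and 4.35 in KO sham hearts. In WT MI hearts it read 8.53 and 9.42, against 4.05 and 3.88 in WT sham hearts. Ccl3 had the largest fold of the 9 in both genotypes, ranking 13 of 19938 genes by log2 fold change in KO hearts and 11 in WT hearts. It rose 19.4-fold in KO hearts (log2 fold change 4.28, SE 0.28, limma adjusted p = 1.24e-05). In WT hearts the rise was 32.3-fold (5.01, SE 0.28, adjusted p = 3.16e-06).

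Ccl4, its immediate neighbour on the chromosome, had log2 levels of 5.10 and 5.35 in KO MI hearts, against 4.31 and 4.01 in KO sham hearts. It read 4.88 and 5.44 in WT MI hearts, against 4.12 and 4.42 in WT sham hearts. The 4 MI arrays lay above the 4 sham arrays, but the 2 WT MI arrays were 0.56 apart. Ccl4 rose 2.08-fold in KO hearts (log2 fold change 1.06, SE 0.20, limma adjusted p = 0.0054). The WT rise was 1.85-fold (0.89, SE 0.20, adjusted p = 0.00934). The call was lost in KO hearts when replicate 2 of KO MI was left out (adjusted p = 0.0539), within a range over the alternatives of 0.00236 to 0.0539. In WT hearts it was lost without WT sham replicate 1 (adjusted p = 0.0786) and also when replicate 2 of WT MI was left out (adjusted p = 0.0721), within a range of 0.00467 to 0.0786.

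Ccl6 and Ccl9 are ligands of Ccr1 found in rodents and made by myeloid cells. Ccl6 had log2 levels of 10.43 and 10.71 in KO MI hearts, against 6.70 and 6.82 in KO sham hearts. It read 11.04 and 11.42 in WT MI hearts, against 6.98 and 6.90 in WT sham hearts. Both KO MI arrays lay below both WT MI arrays, and the KO sham arrays below the WT sham arrays. Ccl6 rose 14.0-fold in KO hearts (log2 fold change 3.81, SE 0.16, limma adjusted p = 1.39e-06). In WT hearts it rose 19.6-fold (4.29, SE 0.16, adjusted p = 4.54e-07).

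Ccl9 had log2 levels of 9.27 and 9.09 in KO MI hearts, against 6.02 and 5.98 in KO sham hearts. It read 9.73 and 9.54 in WT MI hearts, against 6.52 and 6.41 in WT sham hearts. The KO arrays lay below the WT arrays in both conditions by similar amounts. Ccl9 rose 9.09-fold in KO hearts (log2 fold change 3.18, SE 0.13, limma adjusted p = 1.39e-06). The WT rise was 8.99-fold (3.17, SE 0.13, adjusted p = 7.36e-07).

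Both receptors rose with the ligands. Ccr2, the monocyte receptor, had log2 levels of 7.64 and 7.93 in KO MI hearts, against 4.65 and 5.28 in KO sham hearts. It read 8.11 and 7.47 in WT MI hearts, against 4.53 and 4.58 in WT sham hearts. The KO MI arrays lay between the 2 WT MI arrays. Ccr2 rose 7.05-fold in KO hearts (log2 fold change 2.82, SE 0.25, limma adjusted p = 7.03e-05). The WT rise was 9.40-fold (3.23, SE 0.25, adjusted p = 1.87e-05).

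Ccr1, shared by several of these ligands, had log2 levels of 6.55 and 7.09 in KO MI hearts, against 2.96 and 3.37 in KO sham hearts. It read 7.71 and 8.11 in WT MI hearts, against 3.43 and 3.19 in WT sham hearts. The sham arrays of the genotypes overlapped, and both KO MI arrays lay below both WT MI arrays. Ccr1 rose 12.7-fold in KO hearts (log2 fold change 3.66, SE 0.22, limma adjusted p = 7.86e-06). In WT hearts it rose 24.2-fold (4.60, SE 0.22, adjusted p = 1.21e-06). Its sham levels were near the low end of the array, where the 10th percentile of genes by mean level was 3.045, so its folds are uncertain, and detection was not tested. Ccl3, Ccl4, Ccl12 and Ccr2 also read below the median gene (5.80) in all sham arrays, and Ccl4 and Ccl12 in the MI arrays as well. How far low signal shaped their folds was not tested.

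**Figure D2:**
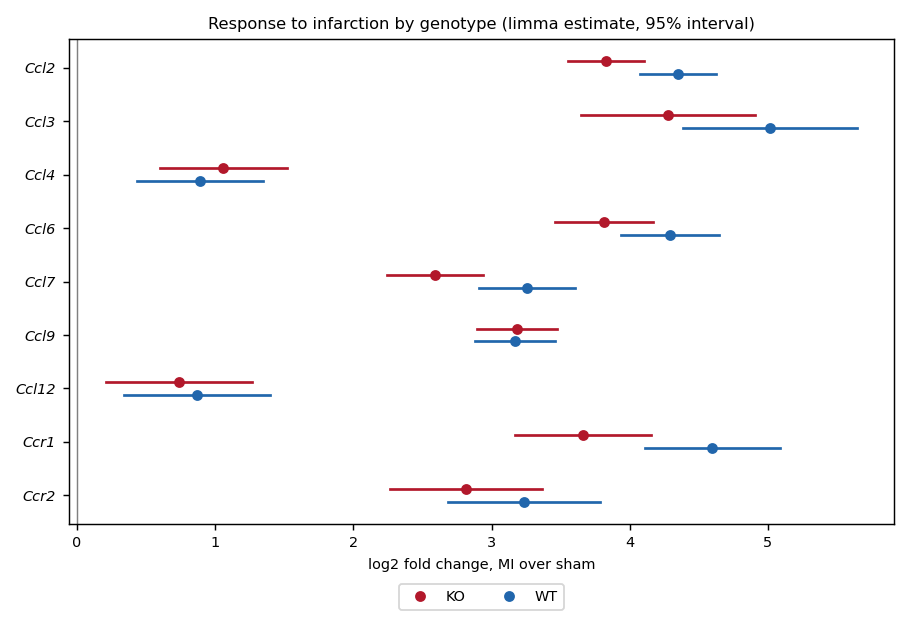
Log2 fold change of MI over sham (horizontal axis) for each of the 9 genes in KO hearts and in WT hearts, as the limma estimate with its 95% interval from 2 arrays a group. All intervals lie above 0, and Ccl4 and Ccl12 lie near 1 while the other 7 genes lie between 2.59 and 5.01.

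The next comparison set KO MI hearts against WT MI hearts, which asks whether MAFbx loss altered the levels of these genes 1 day after infarction. By limma 0 of the 9 passed an adjusted p under 0.05, beside 0.0702% of all genes in either direction. At an unadjusted p under 0.05, 4 of the 9 were lower in KO MI hearts (Ccl2, Ccl6, Ccl9 and Ccr1) and 0 higher, beside 4.72% of all genes that were lower by that rule. The arrays of the groups did not overlap for the same 4 genes, all lower in KO MI hearts, beside 20.2% of all genes. The median log2 difference of the 9 was -0.28, against 0.00 over all genes (0.0015).

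Ccr1 had the largest difference between the infarcted genotypes, a mean of 6.82 ± 0.38 in KO MI hearts and 7.91 ± 0.28 in WT MI hearts (SD, n = 2 each). That is a log2 difference of -1.08 (SE 0.22, unadjusted 95% interval -1.57 to -0.59, limma adjusted p = 0.134). Over the alternatives the difference ranged from -1.35 to -0.81 and its adjusted p from 0.085 to 0.604. Ccl6, a ligand of Ccr1, averaged 10.57 ± 0.20 in KO MI hearts and 11.23 ± 0.27 in WT MI hearts (SD, n = 2 each). Its log2 difference was -0.66 (SE 0.16, 95% interval -1.01 to -0.30, limma adjusted p = 0.184). Both stayed short of the threshold under every alternative that was run.

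Ccl9 differed by -0.45 (SE 0.13, 95% interval -0.74 to -0.16, limma adjusted p = 0.239) and Ccl2 by -0.28 (SE 0.12, 95% interval -0.56 to -0.01, adjusted p = 0.412). Ccl3 differed by -0.50, but its 2 WT MI arrays were 0.88 apart and the interval ran from -1.13 to 0.13 (limma adjusted p = 0.537). The other 4 genes lay closer to 0. Ccl7 differed by -0.10 (95% interval -0.45 to 0.24), Ccl4 by 0.06 (-0.40 to 0.52) and Ccl12 by 0.15 (-0.38 to 0.68). Ccr2 differed by -0.01 (95% interval -0.56 to 0.54).

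Markers of leukocytes stood beside these values. Of 10 neutrophil markers 8 were measured. All 8 had a log2 difference below 0 in KO MI against WT MI, with a median of -1.04. For 7 of the 8 both KO MI arrays lay below both WT MI arrays, beside 20.2% of all genes. By limma 0 of the 8 passed. Their summed level on the linear scale was between 1700.0 and 2447 in KO MI arrays, 3572 and 5929 in WT MI arrays, 139.7 and 155.8 in KO sham arrays and 143.4 and 164.7 in WT sham arrays. Of 10 monocyte and macrophage markers 8 were measured, with a median log2 difference of 0.05 and 0 that passed. In that list 2 of 8 had both KO MI arrays below both WT MI arrays, near the share of 20.2% over all genes. These were Itgam (-0.76), an integrin gene of both neutrophils and monocytes, and Cd14 (-0.56), and the other 6 overlapped. The summed level of the 8 was between 4481 and 4570 in KO MI arrays and between 3761 and 5858 in WT MI arrays. It was between 1865 and 2231 in KO sham arrays and between 1993 and 2036 in WT sham arrays. The part of neutrophil, monocyte or macrophage number in the differences of the 9 genes was not tested.

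Sham hearts of the genotypes were compared in the same way. By limma 0 of the 9 passed in KO sham against WT sham, beside 0.0301% of all genes, and 2 had an unadjusted p under 0.05 (Ccl7 higher, beside 2.38% of all genes, and Ccl9 lower, beside 2.72%). The arrays did not overlap for 4 genes that were higher in KO sham (Ccl2, Ccl7, Ccl12 and Ccr2), beside 16.6% of all genes, and for 2 that were lower (Ccl6 and Ccl9), beside 16.1%. Ccl7 averaged 5.91 ± 0.03 in KO sham and 5.35 ± 0.01 in WT sham hearts (SD, n = 2 each), a log2 difference of 0.56 (SE 0.15, 95% interval 0.22 to 0.91, limma adjusted p = 0.57). Ccl9 averaged 6.00 ± 0.03 in KO sham and 6.47 ± 0.08 in WT sham hearts (SD, n = 2 each), a log2 difference of -0.47 (SE 0.13, 95% interval -0.76 to -0.18, adjusted p = 0.57). Ccr2 differed by 0.41 (95% interval -0.14 to 0.96), and by between 0.09 and 0.73 over the alternatives. Ccl12 differed by 0.28 (-0.25 to 0.81) and Ccl2 by 0.24 (-0.03 to 0.51). The remaining 4 genes differed by between -0.18 and 0.23.

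**Figure D3:**
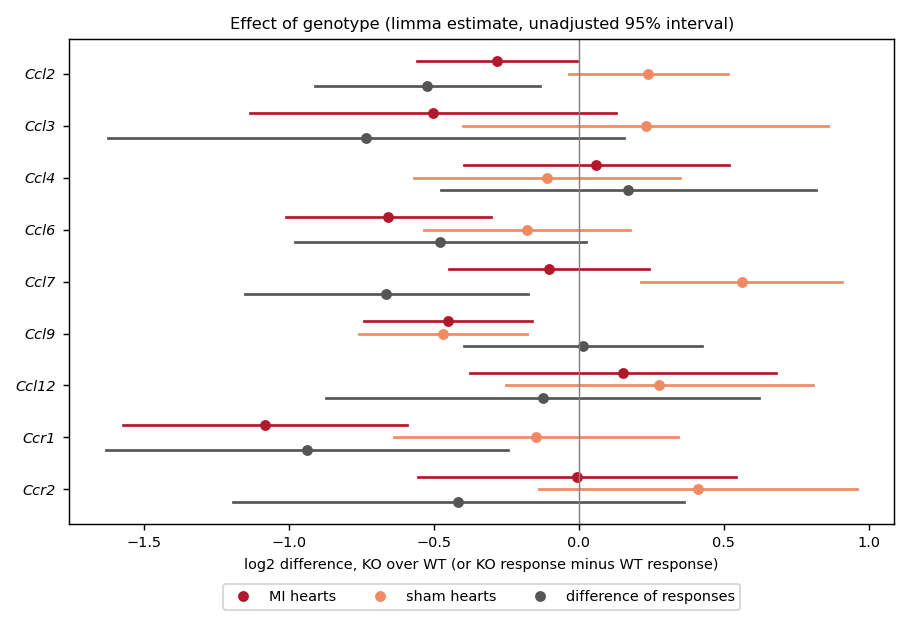
Log2 difference of KO over WT for each of the 9 genes in MI hearts and in sham hearts, and the difference of the MI responses (KO minus WT), as limma estimates with unadjusted 95% intervals from 2 arrays a group. Ccr1 lies farthest below 0 in MI hearts at -1.08, Ccl9 lies at about the same place in MI and sham hearts, and 0 of the 9 genes passed in any of these comparisons after adjustment over all genes.

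Whether infarction raised the genes by different amounts in the genotypes was tested as the difference of the MI responses, KO minus WT. By limma 0 of the 9 and 0.0% of all genes passed, while 8.21% of all genes had an unadjusted p under 0.05. At an unadjusted p under 0.05, 3 of the 9 had a smaller response in KO hearts (Ccl2, Ccl7 and Ccr1), beside 3.48% of all genes with a negative difference by that rule. The estimate was below 0 for 7 of the 9, with a median of -0.48 against 0.01 over all genes. It was -0.94 for Ccr1 (SE 0.31, 95% interval -1.63 to -0.24, limma adjusted p = 0.524), -0.66 for Ccl7 (SE 0.22, interval -1.15 to -0.17, adjusted p = 0.524) and -0.52 for Ccl2 (SE 0.17, interval -0.91 to -0.13, adjusted p = 0.524). For Ccr1 the MI arrays carried most of that estimate, since its sham groups differed by -0.15. For Ccl7 the sham arrays did, since its MI groups differed by -0.10. Ccl9 had a difference of the responses of 0.02 (SE 0.18, interval -0.40 to 0.43). These estimates share arrays with the other comparisons and are no separate evidence for them.

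The rest of the CC family gives the setting for the 9 genes. Of 12 other CC ligands measured, 5 rose in KO hearts after MI, beside 10.5% of all genes, and 4 in WT hearts, beside 12.3%. By the same rule 0 fell in either. Ccl17, which draws Ccr4-bearing T cells, rose by 1.99 on the log2 scale in KO hearts (SE 0.27, limma adjusted p = 0.000845) and by 2.64 in WT hearts (SE 0.27, adjusted p = 0.000103). Ccl24, an eosinophil chemokine, rose by 0.72 in KO hearts and 1.04 in WT hearts. Ccl5 rose by 0.46 in KO hearts and 0.43 in WT hearts, and Ccl8 by 0.46 and 0.41 in the same order. Ccl11, between Ccl7 and Ccl12 on the chromosome, rose by 1.21 in KO hearts (limma adjusted p = 0.00479), while in WT hearts its log2 fold change of 0.45 missed the threshold (adjusted p = 0.179). The difference of these Ccl11 responses was 0.76 (adjusted p = 0.608). The 7 others (Ccl1, Ccl19, Ccl20, Ccl22, Ccl25, Ccl26 and Ccl28) passed in neither genotype. Ccl2 and Ccl8, at the ends of the first chromosome run, thus had very different folds.

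Of 7 other CC receptors measured, 0 rose in KO hearts, beside 10.5% of all genes, and 1 in WT hearts, beside 12.3%. It was Ccr7, which guides cells to lymph nodes. Its log2 fold change was 0.21 in KO hearts (limma adjusted p = 0.5) and 0.68 in WT hearts (adjusted p = 0.0174). Ccr3, Ccr4, Ccr6, Ccr8, Ccr9 and Ccr10 had log2 fold changes between -0.29 and 0.31 in both genotypes and did not pass. Among the 5 genes listed as atypical receptors, those named Ackr encode receptors that bind chemokines without driving migration. Ackr1 and Ackr2 rose and Ackr3 fell in both genotypes, and Ackr4 fell in WT hearts. Ccrl2, also in that list, passed in neither genotype. Its log2 fold change was -0.335 in KO hearts (limma adjusted p = 0.144) and -0.381 in WT hearts (adjusted p = 0.0794). Over all 19938 genes 10.5% rose in KO hearts and 12.3% in WT hearts, while 2044 fell in KO hearts and 3152 in WT hearts. The Ackr4 log2 fold change was -0.44 in KO hearts (limma adjusted p = 0.0534) and -0.73 in WT hearts (adjusted p = 0.0036), and the difference of these responses was 0.29 (adjusted p = 0.715). Ackr1, which presents chemokines on the vessel wall, rose by 0.88 in KO hearts (limma adjusted p = 0.00206) and by 0.76 in WT hearts (adjusted p = 0.00294). Ackr2, a scavenger of inflammatory CC chemokines, rose by 0.53 in KO hearts and 0.60 in WT hearts. Ackr3 fell by 0.47 in KO hearts and by 0.64 in WT hearts. By limma 0 of these 24 genes passed in KO MI against WT MI, and 3 had an unadjusted p under 0.05. Of these, Ccl8 (log2 difference 0.38) and Ccl22 (0.45) were above 0, beside 7.0% of all genes, and Ccl24 (-0.43) was below 0, beside 4.72%.

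**Figure D4:**
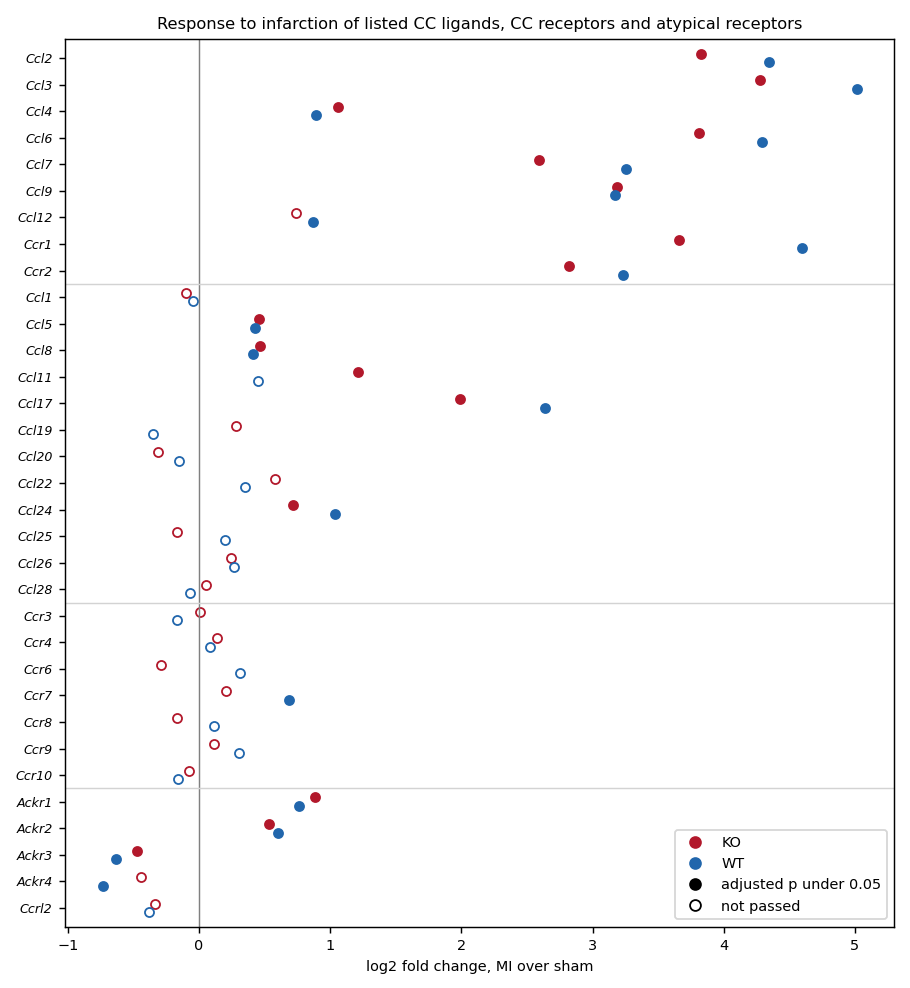
Log2 fold change of MI over sham (horizontal axis) in KO hearts and in WT hearts for the 9 genes (top block), 12 other CC ligands, 7 other CC receptors and 5 atypical receptors, with filled points where the limma adjusted p was under 0.05. Among the genes outside the top block Ccl17 lies farthest to the right, at 1.99 and 2.64.

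Of 14 measured genes that carry the signal of CC receptors inside cells, 8 rose in KO hearts, beside 10.5% of all genes, and 9 in WT hearts, beside 12.3%. The others did not pass, 0 fell, and the median log2 fold change was 0.60 in KO hearts and 0.87 in WT hearts. Vav1, an exchange factor for Rac in blood cells, rose by 1.87 in KO hearts (limma adjusted p = 9.89e-06) and 2.08 in WT hearts (adjusted p = 3.33e-06). Rac2, the Rac protein of blood cells, rose by 1.45 in both, and Pik3r5, a subunit of the PI3-kinase that G protein subunits switch on, by 0.90 in KO hearts and 1.21 in WT hearts. By limma 0 of the 14 passed in KO MI against WT MI, beside 0.0702% of all genes in either direction. The median log2 difference was -0.22, against 0.0015 over all genes, with 12 of the 14 below 0 and 2 above. For 8 of the 14 both KO MI arrays lay below both WT MI arrays, beside 20.2% of all genes.

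The genes most alike to each of the 9 were found by the root mean square difference of log2 levels over the 8 arrays, each gene centred on its own mean, among 18615 genes with a proper symbol. The measure follows mostly the size of the rise after MI, since 4 of the 8 arrays are MI arrays, and it is a description. Ccl6 and Ccr1 lay closest to each other among the 9 (0.19), and Itgam, the integrin of neutrophils and monocytes, lay as near to Ccl6 (0.18) and to Ccr1 (0.19). Ccl7 and Ccr2 were also each other's nearest among the 9 (0.25), and Lgals3, which encodes the macrophage lectin galectin-3, was the gene nearest to both (0.16 to Ccl7 and 0.23 to Ccr2). Ccl2 lay nearest to the metallothionein gene Mt2 (0.21) and to Il1b (0.21), and Ccl3 to Slfn1 (0.36) and Itgam (0.41). Ccl9 lay nearest to the scavenger receptor gene Msr1 (0.18) and to Efhd2 (0.22). The weakly moving pair had other neighbours, Gpsm3 (0.13) and Tmem154 (0.15) for Ccl4, and the hyaluronan synthase gene Has2 (0.12) and Ifi27l2a (0.13) for Ccl12.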

How the data were processed

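The authors deposited log2 expression values per probe set, from RMA in Affymetrix Expression Console, per the submitters' processing notes. Their versions are not stated, and further steps were not found in the sources at hand. Of 35556 probes the platform annotation gave 1 gene to 21789, several to 1621 and none to 12146, and 21698 of those with 1 gene matched RefSeq by Entrez ID. The probe with the highest mean over the arrays stood for each gene, which left 19938 genes.

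All 8 arrays entered 1 fit of 4 group means in limma 3.58.1 (R 4.3.3) on the log2 values, with 4 residual and 5.57 prior degrees of freedom, two-sided p-values adjusted by Benjamini-Hochberg across all genes, and a threshold of 0.05. With 2 arrays against 2 an exact permutation test cannot give a p under 0.333. Precision is limited by the number of arrays. The 9 genes were all named, whatever their values. Other CC ligands, CC receptors and atypical receptors could all be named, and of the signalling list up to 4 with the smallest p. Members and lists were chosen with earlier results of these data known. Ccr1l1 and the windows shown were picked after values had been seen. Of the listed genes 10 had no probe of their own here and were not analysed. The code was tested on simulated data. Python 3.11.15 with matplotlib 3.10.9 made the plots.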

Additional observations from a re-analysis of the deposited data

How the results depend on the processing

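For the 9 genes, each response to infarction was refitted under up to 17 alternatives: an intensity trend, removal of the lowest 33.3% of genes, probes averaged per gene, every probe tested singly, median centring, cyclic loess, a replicate block, the 2 groups alone, each array left out, and, chosen after seeing the data, removal of replicate 1 of KO sham together with replicate 2 of WT MI. The number of the 9 that rose stayed between 8 and 9 in KO hearts and between 7 and 9 in WT hearts, and Ccl2, Ccl3, Ccl6, Ccl7, Ccl9, Ccr1 and Ccr2 passed in every one. Between genotypes 0 of the 9 passed in any of them. Removal of low genes left Ccl12 out.

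Counts over all genes moved more. Leaving out 1 array gave 2246 to 4099 changed genes in KO MI against KO sham (4142 with all arrays, lowest without KO MI replicate 2) and 3457 to 6483 in WT MI against WT sham (5609, lowest without WT sham replicate 1). KO MI against WT MI had 14 changed genes, but 63 with an intensity trend, 23 without low genes, 0 with all probes, 2 with the 2 groups alone, 3 under the joint removal and 2 to 11 with 1 array left out. With cyclic loess 6 were higher and 14 lower, beside 6 and 8. KO sham against WT sham had 6, but 12 with a trend, 1 with all probes, 3 with the 2 groups alone and 3 to 34 with 1 array left out (34 without KO sham replicate 2). The difference of the responses had 0, but 4 with a trend, 1 with cyclic loess and 0 to 3 with 1 array left out. The cause was not tested.

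Some differences near 0 changed sign, all short of the threshold. Under the joint removal this held for Ccl12 in MI hearts (adjusted p = 0.927), Ccr1 in sham hearts (0.967) and the Ccl9 difference of responses (0.963), and with cyclic loess for the last (0.909). With 1 array left out, adjusted p ranged from 0.648 to 0.963 for Ccl4, 0.801 to 0.946 for Ccl7, 0.526 to 0.987 for Ccl12 and 0.591 to 0.997 for Ccr2 in MI hearts, from 0.922 to 0.9999 for Ccl4 and 0.601 to 0.9999 for Ccr1 in sham hearts, and from 0.855 to 0.999 for Ccl4, 0.861 to 0.989 for Ccl9 and 0.680 to 0.988 for Ccl12 in the difference of responses.

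The titles number the arrays 1 and 2 in each group. Deviations of same-numbered arrays from their group means correlated between -0.19 and 0.16 over genes. With 2 arrays a group, these values cannot tell whether same-numbered arrays were paired or handled together. The fit with the replicate block called 3811 genes in KO MI against KO sham, 5248 in WT MI against WT sham, 5 in KO MI against WT MI, 7 in KO sham against WT sham and 0 for the difference. Of the 9, it brought Ccl12 past the threshold in KO hearts (adjusted p = 0.0201, range over alternatives 0.0201 to 0.341).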

Other observations

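Markers of other cell types were also measured, in a setting where 2098 of 19938 genes rose and 2044 fell in KO hearts after MI, and 2457 rose and 3152 fell in WT hearts. Of 6 markers of resident cardiac macrophages 0 rose, and in KO hearts 2 fell after MI, Folr2 (by 0.69 on the log2 scale, limma adjusted p = 0.0249) and Timd4 (by 0.67, adjusted p = 0.0447). In WT hearts Folr2 fell by 1.31 (adjusted p = 0.000608) and was the only one of the 6 to pass. Of 8 lymphocyte markers 0 rose in KO hearts and 1 in WT hearts, Cd8a, with a log2 fold change of 0.43 (adjusted p = 0.0432). Of 6 markers of mast cells and eosinophils 1 rose and 1 fell in each genotype, and 4 did not pass. Kit rose by 1.26 in KO hearts and 1.25 in WT hearts. Cpa3, a mast cell protease gene, fell by 0.68 in KO hearts and by 0.83 in WT hearts. The mast cell protease genes Mcpt4 (-0.45 in KO hearts and -0.33 in WT hearts) and Cma1 (-0.04 and 0.12) did not pass. Siglecf and Prg2 did not pass either. Among 8 genes of endothelium and fibroblasts 0 rose in either genotype, 2 fell in KO hearts and 3 fell in WT hearts. Kdr, the main VEGF receptor of vessels, fell by 0.83 in KO hearts and by 1.28 in WT hearts. The endothelial gene Tie1 fell in KO hearts only (-0.41, limma adjusted p = 0.0326). In WT hearts only, the fibroblast genes Col1a2 (-0.82, limma adjusted p = 0.00524) and Dcn (-0.61, adjusted p = 0.00498) fell. The fibroblast genes Col1a1 and Pdgfra passed in neither genotype. The endothelial genes Pecam1 (-0.001 in KO hearts and 0.06 in WT hearts) and Cdh5 (-0.19 and -0.01) did not pass.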
